A study of Homo sapiens with 12 samples.

Results

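The trefoil peptides TFF1, TFF2 and TFF3 and the cobalamin binders CBLIF, TCN1, TCN2 and CUBN were measured in gastric cancer cells treated with verteporfin (VP) or with the solvent DMSO. All probes of the array annotated to these 7 gene symbols were taken, which gave 7 probes, 1 for each gene, among 47323 probes and 20046 named genes. The genes were chosen by earlier results on the VP and DMSO arrays of the same data, so their changes with VP are given as a description, with no test, and nothing is supported with them. RNA from AGS and MKN45 cells, both established lines from human gastric adenocarcinoma grown in RPMI1640 medium, was hybridised to 12 arrays of the Illumina HumanHT-12 V4 design, 3 for each line treated with DMSO and 3 for each line treated with VP, in each case for 36 h as the labels state. The lines carry no allele or transgene named in the labels, and no untreated cells were analysed here. Nothing in the labels says that the numbered arrays came from separate cultures, so the spread behind every p-value is that of these arrays alone and may be technical.

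Trefoil peptides are small secreted proteins, compact and resistant to proteases, that are released with mucins onto the surface of the gut and help to repair it. TFF1 is made by the surface mucous cells of the stomach, TFF2 by its mucous neck and deep gland cells, and TFF3 mainly by goblet cells of the intestine. CBLIF is gastric intrinsic factor, which human parietal cells secrete and which carries cobalamin (a cobalt-containing vitamin) to the ileum, where CUBN (cubilin) takes up the complex. TCN1 is haptocorrin, the cobalamin binder of saliva, gastric juice and granulocytes, and TCN2 is transcobalamin, which delivers the vitamin from the blood to cells. VP is a porphyrin-type photosensitiser that also keeps the coactivator YAP from its DNA-binding partners of the TEAD family.

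The authors deposited 2 tables of these arrays, and they did not give the same picture. The table of probe signals, with a detection p-value for each signal, was the source of every result unless the other is named. A probe was called above background on an array when its detection p-value was under 0.01. Levels are given as log2 signal after background correction and quantile normalization, and a level of one probe is not set against that of another. The 12 arrays had median signals of 98.4 to 137 and 14523 to 16571 probes above background, and arrays of 1 group correlated at r of 0.987 to 0.994 across all probes. The keratins KRT8, KRT18 and KRT19, EPCAM and CDH1, which mark epithelial cells, were above background on all arrays, and 0 of 6 fibroblast, 0 of 5 leukocyte and 0 of 4 endothelial markers were above background on all arrays of any group. In the second table, of log2 values, the values past row 21197 belonged to the probe named in the next row, which touched the rows of TFF1, TFF2, TFF3, TCN1 and TCN2 and not those of CBLIF and CUBN. Across 16021 probes the changes with VP in the 2 tables correlated at r = -0.08 in AGS and r = -0.11 in MKN45. The 2 probes of FAT1, a large cadherin, were higher with VP in the signals by 0.62 and 0.59 in AGS and lower in the value table by a log2 difference of -2.17 and -2.03. In MKN45 the differences were 0.29 and 0.23 in the signals and -1.5 and -1.38 in the value table. The study describes FAT1 as lowered by VP in its expression profiles. It also reports lower FAT1 in western blots and qRT-PCR of VP-treated cells and in VP-treated organoids. This is the direction of the value table and opposite to that of the signals. Why the tables differ was not tested, and each direction given here holds for the signals under the column labels as deposited.

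Of the 7 genes, TFF1, CBLIF and TCN1 were above background on all 3 arrays of at least 1 group, and TFF2, TFF3, TCN2 and CUBN were above background on 0 of 12 arrays. The 3 measured genes all had far higher signals on the VP arrays of both lines, and for each of them no VP array of a line overlapped its DMSO arrays, as held for 27.2% of the fitted probes in AGS and 26% in MKN45. In AGS, all 3 went from above background on no DMSO array to above background on all VP arrays, and 1.09% of all 47323 probes did so. In MKN45, 1 of the 3, CBLIF, did so, against 0.839% of all probes. In the limma fit, all 3 were called higher with VP in each line, where 24.2% of the 16021 probes fitted were called higher in AGS and 21.1% in MKN45. As the genes were chosen on this contrast, these counts describe them and are no result. Arrays of whole cultures cannot tell a change in the share of cells that express a gene from a change in its RNA per cell.

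**Figure D1:**
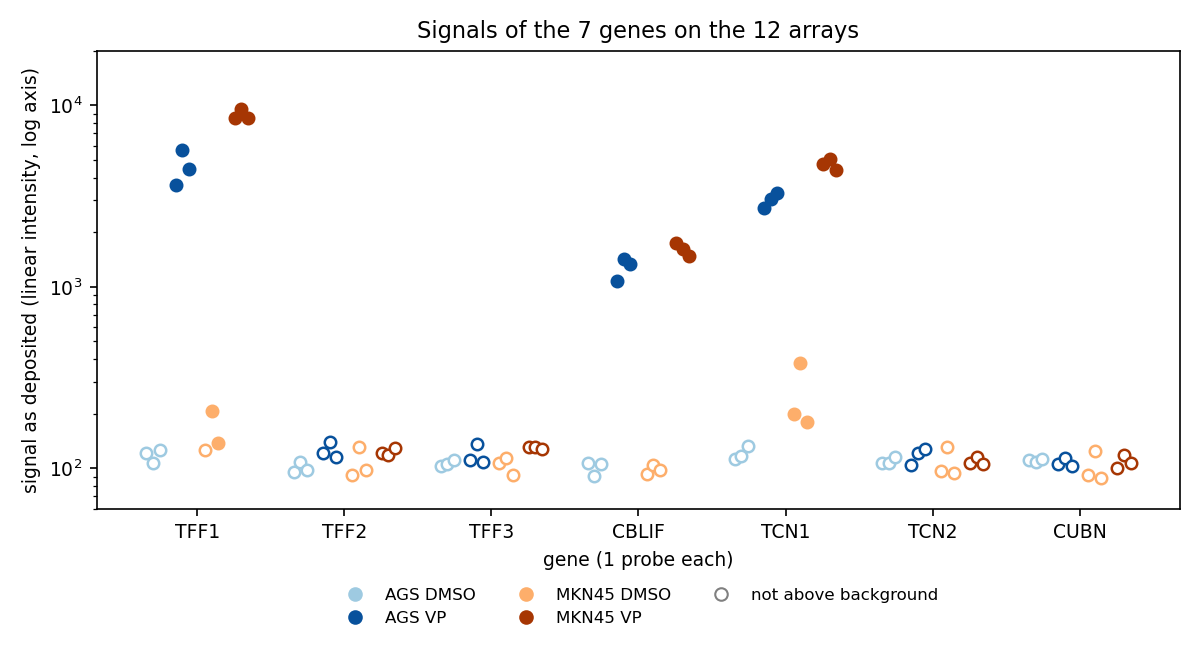
Signals of the 7 genes on each of the 12 arrays (linear intensity as deposited, on a log axis), by group. Each point is 1 array, and open points were not above background. TFF1, CBLIF and TCN1 stand well above their DMSO arrays on the VP arrays of both lines, while TFF2, TFF3, TCN2 and CUBN stay between 88.0 and 141 throughout.

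TFF1 gave signals of 121, 107 and 126 on the 3 AGS arrays with DMSO, none of them above background, and of 3649, 5656 and 4478 on the AGS arrays with VP. On the MKN45 arrays it gave 127, 207 and 139 with DMSO, of which replicates 2 and 3 were above background, and 8469, 9573 and 8555 with VP. The lowest VP array was thus an order of magnitude above the highest DMSO array in each line. The mean signal with VP was 4594 in AGS and 8866 in MKN45, and 21.1% of the fitted probes were called higher in MKN45 with VP. The log2 level rose from 4.98 ± 0.27 to 12.21 ± 0.17 in AGS and from 6.15 ± 0.42 to 12.85 ± 0.07 in MKN45 (SD, n = 3 each). Because the DMSO level in AGS was not above background, the rise there is given as a bound, which sets each DMSO array to the lowest level among its probes above background or to the gene's own if higher. On the background-corrected scale the rise was at least 6.41 (log2) or at least 84.9-fold in AGS, and it was 6.70, or 104-fold, in MKN45. Every such bound rests on the background correction, and the signals as given, in which background remains, gave smaller differences, of 5.30 in AGS and 5.49 in MKN45 for TFF1.

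TFF2 and TFF3 showed no level that could be told from background. TFF2 gave 95.3 to 109 in AGS with DMSO and 116 to 141 in AGS with VP. Its AGS arrays with VP thus lay above those with DMSO, as held for 27.2% of the fitted probes. In MKN45 it gave 92.4 to 131 with DMSO and 119 to 129 with VP. The detection p-values of TFF2 were 0.039 at the least, and no change is given. TFF3 gave 102 to 111 in AGS with DMSO, 109 to 136 in AGS with VP and 91.5 to 114 in MKN45 with DMSO. Its MKN45 arrays with VP read 131, 130 and 128, above all MKN45 DMSO arrays, as held for 26% of the fitted probes in that line. Their detection p-values were 0.030 to 0.065 and no change is given. A fit without the filter on background called TFF3 in MKN45. In the RefSeq gene table, TFF3, TFF2 and TFF1 lie next to each other on chromosome 21, in this order, with 0 other protein-coding genes between them, so the high signals with VP were those of 1 gene of the cluster and were not seen on the probes of its neighbours of the same family.

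CBLIF, the intrinsic factor gene, was above background on 0 of 6 DMSO arrays. Its signals with DMSO were 107, 90.9 and 106 in AGS and 93.1, 104 and 97.6 in MKN45. With VP they were 1084, 1418 and 1341 in AGS and 1742, 1615 and 1472 in MKN45, all above background and more than any DMSO array. The log2 level went from 4.55 ± 0.15 to 10.21 ± 0.06 in AGS and from 4.57 ± 0.25 to 10.25 ± 0.11 in MKN45 (SD, n = 3 each). On the background-corrected scale the rise was at least 4.41 in AGS and at least 4.55 in MKN45 (log2), at least 21.3-fold and 23.5-fold. The signals as given differed by 3.61 and 3.65.

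TCN1, the haptocorrin gene, was not above background in AGS with DMSO, where it gave 113, 117 and 133, and gave 2718, 3062 and 3280 with VP. In MKN45 it was above background on all DMSO arrays, at 199.9, 379 and 181, and reached 4745, 5068 and 4399 with VP. Its mean signal with DMSO was 121 in AGS and 253 in MKN45, and with VP it was 3020 and 4737. For scale, 7.03% of the fitted probes were called higher in MKN45 with DMSO and 21.1% with VP. The log2 level went from 5.07 ± 0.19 to 11.58 ± 0.12 in AGS and from 7.37 ± 0.33 to 11.90 ± 0.09 in MKN45 (SD, n = 3 each). On the background-corrected scale the rise in AGS was at least 5.78 (log2), or at least 55.0-fold, and that in MKN45 was 4.53, or 23.1-fold. For the signals as given the differences were 4.64 and 3.91. TCN1 is also stored in granulocytes, and of markers of those cells MPO was above background on no array and LTF, which is stored in the same granules, on 1 of 12, a DMSO array of MKN45.

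TCN2 and CUBN, the carrier in blood and the receptor of the ileum, were not above background anywhere. TCN2 read 94.0 to 130 on the DMSO arrays and 105 to 127 on the VP arrays. CUBN read 88.0 to 125 and 101 to 118. The signals with and without VP overlapped in each line for both genes.

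CBLIF and TCN1 are neighbours on chromosome 11, with 0 protein-coding genes between them, and both are read from the minus strand. Since both rose in both lines, the 250 bases before the start of each are shown, from the RefSeq promoter table of build GRCh38.p14, 5′ to 3′ on the gene's own strand, at chr11:59845500-59845749 for CBLIF and chr11:59866488-59866737 for TCN1. Capitals mark matches, on either strand, to TATAA (the core of a TATA box), GATAAG (bound by GATA factors), GGAATG (bound by TEAD factors), TGANTCA (bound by AP-1) and TGTTTAC (bound by FOXA factors).
CBLIF: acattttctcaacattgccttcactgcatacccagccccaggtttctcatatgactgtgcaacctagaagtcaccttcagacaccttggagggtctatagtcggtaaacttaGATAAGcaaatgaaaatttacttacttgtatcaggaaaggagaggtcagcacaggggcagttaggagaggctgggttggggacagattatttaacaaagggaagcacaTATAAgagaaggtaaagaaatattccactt
TCN1: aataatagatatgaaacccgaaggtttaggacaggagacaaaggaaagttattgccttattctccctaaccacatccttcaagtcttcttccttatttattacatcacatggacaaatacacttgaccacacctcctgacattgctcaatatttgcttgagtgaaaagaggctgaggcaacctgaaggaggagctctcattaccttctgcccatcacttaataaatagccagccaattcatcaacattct
The window of CBLIF held TATAA, which began 30 bases before the start, and GATAAG, which began 138 bases before it. The window of TCN1 held 0 matches to the 5 motifs, and neither window held GGAATG. Of all 35116 windows of this length in the table, 18.9% held TATAA, 5.65% GATAAG, 11.9% GGAATG, 6.57% TGANTCA and 2.98% TGTTTAC. A match is only a match of letters. The table also held a window for CUBN, with 0 matches, and none was matched for TFF1, TFF2, TFF3 and TCN2.

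The lines were compared on the DMSO arrays, which asks whether the genes differed before any drug. TCN1 was higher in MKN45 by 2.30 on the log2 scale (SE 0.15, adjusted p = 4.76e-07 in limma over all probes), and by at least 1.57 on this scale when the AGS level is set to its bound. For the signals as given the difference was 1.04 (adjusted p = 5.27e-07 in limma), and the plain 2-sample test gave adjusted p = 0.0305 on the main levels. These DMSO arrays are part of the data on which the genes were chosen, and no AGS array was above background for TCN1. Its difference and p-values here are therefore a description. TFF1 had a level of 6.15 in MKN45 against 4.98 in AGS and was called higher too, but only 2 of 3 MKN45 arrays and no AGS array were above background. The gene had passed the filter through its VP arrays alone, the call was lost with the plain 2-sample test that the methods name, and the levels are given as a description. CBLIF was above background in neither line and is not compared. In this comparison 7.03% of the fitted probes were called higher in MKN45.

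The lines were also compared on the VP arrays, a comparison added after the values had been seen. The genes were chosen with these arrays, so the differences and adjusted p-values given here are a description. TFF1 and CBLIF also passed the filter through their VP arrays alone. TFF1 was higher in MKN45 by 0.64 (SE 0.19, 95% interval 0.23 to 1.05, adjusted p = 0.0181), and its call was lost without AGS replicate 1 with VP (0.57, adjusted p = 0.0682), without MKN45 replicate 2 with VP (0.61, adjusted p = 0.0532) and without the filter on background (adjusted p = 0.056). TCN1 differed by 0.32 (95% interval -0.01 to 0.64, adjusted p = 0.117), and under other scalings it was called, with 0.65 when arrays were aligned by their medians alone (adjusted p = 0.012) and 0.31 for the signals as given (adjusted p = 0.018). It was also called when the VP arrays were fitted alone (adjusted p = 0.0402) and without MKN45 replicate 2 with DMSO (adjusted p = 0.0432). CBLIF differed by 0.04 (95% interval -0.24 to 0.32, adjusted p = 0.844). On these arrays 21.1% of the fitted probes were called higher in MKN45. In the order of levels, TFF1 therefore ran from AGS with DMSO through MKN45 with DMSO and AGS with VP to MKN45 with VP. TCN1 had the same order, with its 2 VP groups apart by less than the test could call, and the 2 VP groups of CBLIF differed by less than their spread.

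The difference of the changes, MKN45 minus AGS, is made of the contrasts on which the genes were chosen, so it is given as a description. For TCN1 it was -1.98 on the log2 scale (SE 0.22), with an AGS level that was not above background with DMSO. For the signals as given it was -0.74, and with the AGS level at its bound the rise in MKN45 was the smaller by 1.25 on the background-corrected scale. For TFF1, which was also not above background in AGS with DMSO, it was -0.53. Both changes of CBLIF are bounds, and no difference between them is given. In the fit 1 of the 3 genes, TCN1, was called for a smaller rise in MKN45, as were 4.44% of the fitted probes. In the value table the difference of TCN1 was -0.15.

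The value table showed none of these rises. With the names moved to the right probes, TFF1 had values of 6.49, 6.53 and 6.45 in AGS with DMSO and 6.58, 6.57 and 6.51 with VP. In MKN45 it had 7.17, 7.13 and 7.20 with DMSO and 7.26, 7.04 and 7.16 with VP. CBLIF ran from 6.32 to 6.63 over all 12 arrays. TCN1 had 6.65 ± 0.05 and 6.54 ± 0.19 in AGS with DMSO and VP, and 7.05 ± 0.08 and 6.79 ± 0.09 in MKN45 (SD, n = 3 each), a log2 difference of -0.26 in MKN45 against the rise of 4.53 in the signals. For scale, 6783 probes whose detection p-values were over 0.2 on every array had values in this table with a median of 6.50 and a 95th percentile of 6.64. As deposited, the row named TFF3 read 9.95 to 10.1 in AGS with DMSO and 10.4 to 10.5 in MKN45 with DMSO. Those values belong to the next probe, and the values that belong to TFF3 were 6.43 to 6.71 on all arrays. The authors normalized the lines separately in this table, so its levels are compared within a line only.

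**Figure D2:**
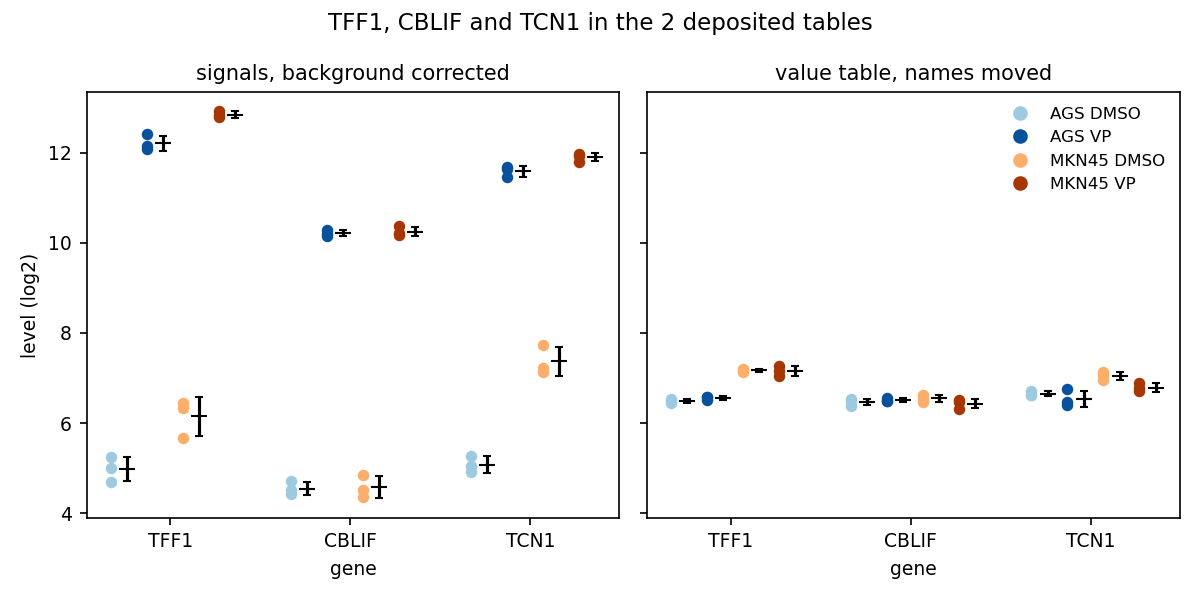
Levels (log2) of TFF1, CBLIF and TCN1 on each array in the background-corrected signals (left) and in the value table with names moved (right), with the mean and SD of each group of 3 arrays beside the points. In the value table the lines are not on 1 scale. The VP arrays reach 10.2 to 12.9 in the signals and stay between 6.32 and 7.26 in the value table.

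Of 14 other genes of cobalamin uptake and use, 12 were on the array and 8 were above background in a group. This list and those after it were chosen with earlier results of these data known. Their calls and adjusted p-values are therefore a description. In AGS 3 were called higher and 1 lower, with a median log2 change of 0.11, and in MKN45 3 and 1, with a median of 0.26. Over all 9696 genes fitted, 25.6% were called higher and 29.2% lower in AGS and 22.3% and 22.1% in MKN45, with medians of -0.03 and -0.02. The same 3 were called higher in both lines. CLYBL, a mitochondrial enzyme whose loss lowers cobalamin in blood, rose by at least 1.02 and at least 0.63 in AGS and MKN45 on the background-corrected scale, where the signals as given differed by 0.51 and 0.31. MMUT, the cobalamin-dependent methylmalonyl-CoA mutase, rose by 0.93 ± 0.12 and 0.52 ± 0.12 (SE), and LMBRD1, which exports cobalamin from lysosomes, by 0.78 ± 0.11 and 0.61 ± 0.11. MMACHC, which strips the upper ligand from cobalamin, fell by 0.94 in AGS (adjusted p = 5.16e-05), and its change differed between the lines (adjusted p = 0.0277). CD320, the receptor for transcobalamin, was called lower in MKN45 by a log2 difference of -0.31 (adjusted p = 0.0329), and that call was lost when arrays were aligned by their medians alone, a scaling called median shift from here on (0.04, adjusted p = 0.904). MTR and MTRR, both of methionine synthesis, were not called on the probes used, and a second probe of MTRR was called higher in MKN45 (0.37, adjusted p = 0.0186). After a median shift both were called higher in MKN45 on the probes used. MTR was then at 0.64 (adjusted p = 0.0101) and MTRR at 0.49 (adjusted p = 0.0376).

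Mucins and binding partners of trefoil peptides were mostly not above background. Of 12 genes, 10 were on the array and 1 was above background in a whole group. As this list too was chosen with earlier results known, its p-value is a description. That gene, DMBT1, a scavenger receptor protein of mucosal surfaces that binds trefoil peptides, rose by at least 2.96 in AGS cells on the background-corrected scale, and in MKN45 cells the rise was 2.67 (SE 0.16, adjusted p = 8.46e-08). Its signals as given differed by 1.96 and 1.75. On the probe used for each, MUC5B, MUC2, GKN1 and the chemokine receptor ACKR3 were above background on no array. MUC6, the gland mucin secreted with TFF2, was above background on 1 array of each MKN45 group, and GKN2, a stomach protein that binds TFF1, on 1 MKN45 array with VP.

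Among 22 products of gastric gland and pit cells, 9 were above background in a group. In AGS 4 were called higher and 2 lower (median 0.28), and in MKN45 3 and 2 (median -0.02). Over all genes fitted, 25.6% were called higher and 29.2% lower in AGS and 22.3% and 22.1% in MKN45. These counts and the p-values below are a description, as the list was chosen with earlier results known. CLDN18, the tight junction claudin of the stomach, rose by at least 2.37 in AGS and at least 2.23 in MKN45 on the background-corrected scale. The signals as given on that probe differed by 1.77 and 1.59, and a second probe of CLDN18, above background on 1 of 6 DMSO arrays, was called higher in both lines with corrected differences of 1.78 and 1.79. ATP4B, the beta subunit of the acid pump of parietal cells, rose by at least 2.15 and at least 1.19 on the corrected scale, against 1.75 and 1.08 for the signals as given, and it was above background on no DMSO array. ATP4A, the alpha subunit of the pump, rose by at least 1.26 in AGS, against 1.19 for the signals as given. In MKN45 ATP4A was called too, but it was above background on none of the 6 arrays and no change is given there. On the probe used for each, PGC, PGA3, PGA4, PGA5 and LIPF were above background on no array. PGC and the near-identical copies PGA3, PGA4 and PGA5 are pepsinogens and LIPF is a lipase, all of chief cells. KCNE2 and the hormone GHRL were above background on no array either. CTSE, a protease of surface mucous cells, was called lower by -0.44 and -0.46 in AGS and MKN45. Both calls were lost after a median shift (adjusted p = 0.0946 and 0.658), and of the other 2 probes of CTSE 1 was not called in AGS (-0.19, adjusted p = 0.175). AGR2, a chaperone of mucous cells, rose by 1.25 in AGS (adjusted p = 6.95e-05) and not in MKN45 (-0.02, adjusted p = 0.951), and the changes differed (adjusted p = 0.00967). A second probe of AGR2 gave 0.45 in AGS and -0.47 in MKN45, both called. REG4 fell by 1.16 in AGS (adjusted p = 4.11e-06) and the lines differed (adjusted p = 0.00487).

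Transcription factors of the stomach and of trefoil genes were listed as a separate group. Of 19, 16 were on the array and 11 were above background in a group. In AGS 7 were called higher and 2 lower (median 0.59), and in MKN45 5 and 2 (median 0.13). Over all genes fitted, 25.6% were called higher and 29.2% lower in AGS and 22.3% and 22.1% in MKN45. The list was chosen with earlier results known, so counts and p-values are a description. KLF4, a factor of differentiating epithelium, rose by 1.41 and 1.22 (SE 0.11 each) in AGS and MKN45, and KLF5 by 0.70 and 0.71 (SE 0.15 each). FOXA2, a forkhead factor of foregut endoderm, rose by 1.21 and 0.59 (SE 0.15 each), and SOX9 by 1.06 and 0.37 (SE 0.14 each), with a smaller rise in MKN45 for SOX9 (adjusted p = 0.0457). SOX2, a factor of the foregut and stomach, was called lower by -0.49 and -0.85, of which the call in AGS was lost after a median shift (adjusted p = 0.433) and was not made on a second probe (adjusted p = 0.459). GATA4 fell by 0.55 in AGS (adjusted p = 0.00482), also lost after a median shift (adjusted p = 0.231). ESR1, the estrogen receptor that drives TFF1 in breast cancer cells, and SPDEF, a factor of mucous cells, were above background on no array.

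**Figure D3:**
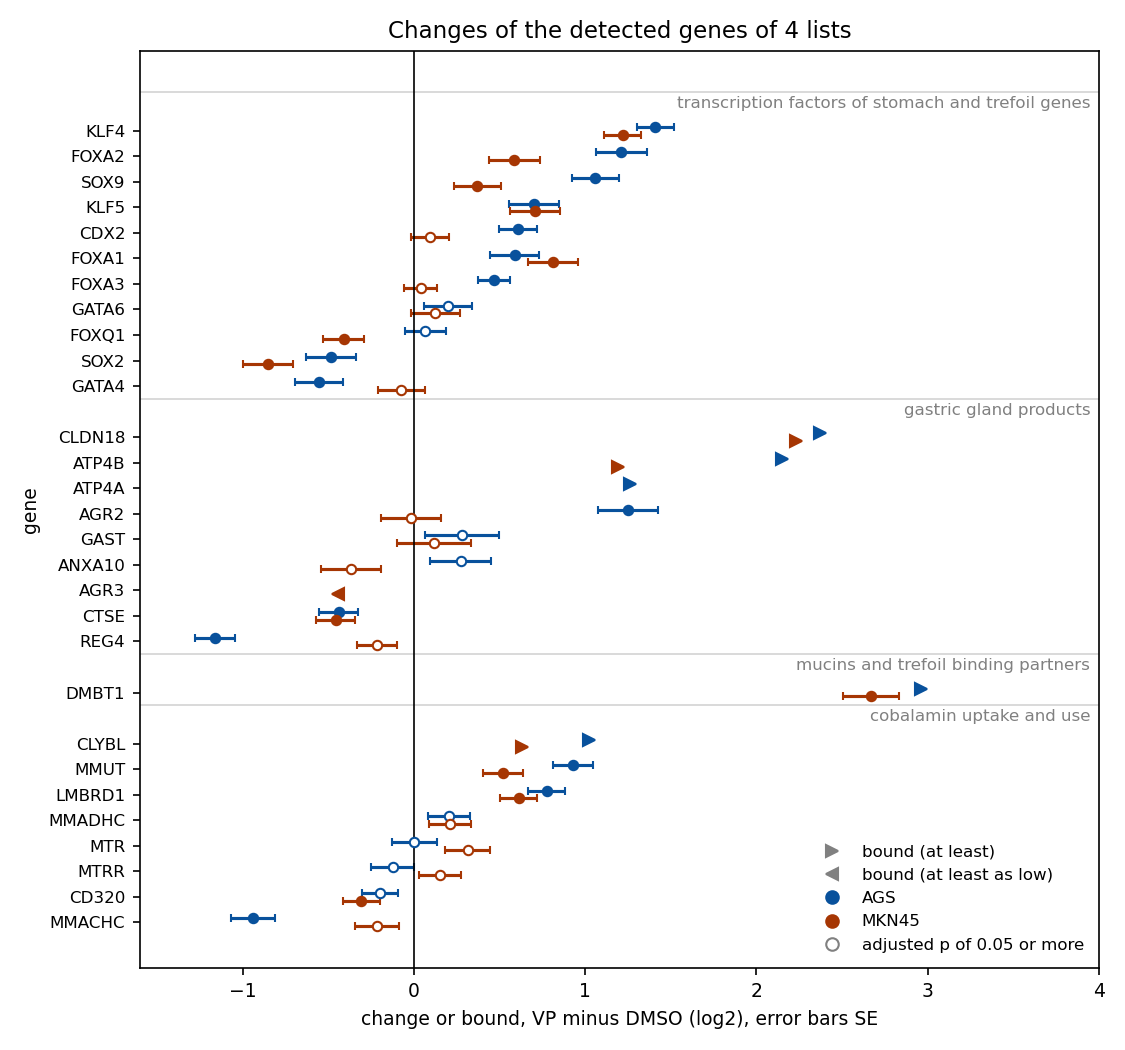
Change with VP (log2, background-corrected scale, circles with SE as bars) in AGS and MKN45 for the genes of 4 lists that were above background in a group, where triangles are bounds for a gene not above background in a line's DMSO or VP arrays. Filled marks had an adjusted p under 0.05, and a gene above background on no array of a line has no mark there. CLDN18 and ATP4B have bounds of 1.19 to 2.37 in both lines and DMBT1 a bound of 2.96 in AGS beside its rise of 2.67 in MKN45, while the circles of the other genes lie between -1.16 and 1.41.

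As with the trefoil and cobalamin genes, the value table did not show these changes. CLDN18 changed by -0.06 and -0.08 in AGS and MKN45 in that table, ATP4B by 0.03 and -0.03, KLF4 by 0.24 and -0.20 and DMBT1 by -0.18 and -0.36. LMBRD1, higher in the signals, was at -0.82 and -0.51. CTSE and REG4, in contrast, were lower in both tables. In the value table CTSE was at -0.74 and -0.64 and REG4 at -0.18 and -1.13. The fall of REG4 in the signals was not called in MKN45 (-0.21, adjusted p = 0.161). Under the median shift the median of all genes in the signals moved to 0.15 in AGS and 0.27 in MKN45, and probes called higher and lower went from 3870 and 4398 to 4627 and 1818 in AGS and from 3384 and 3348 to 5065 and 897 in MKN45. TFF1, CBLIF, TCN1, CLDN18, ATP4B, DMBT1, KLF4, KLF5, FOXA2 and SOX9 were higher in both lines under that scaling and for the signals as given.

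The genes next to the 2 clusters were looked up in the RefSeq gene order, with the 6 nearest genes above background on each side. Around TFF3, TFF2 and TFF1, TMPRSS2 and CBS were called higher in both lines and C2CD2, WDR4 and U2AF1 lower in both. The serine protease gene TMPRSS2, the fifth such gene on the side of TFF3, was higher with VP by 3.40 (adjusted p = 1.1e-09) in AGS, and by 3.62 (adjusted p = 6.58e-10) in MKN45. ABCG1, the nearest on that side, was not called in either line (-0.05 and 0.31), and SLC37A1, the nearest on the other side, was called lower in AGS (-0.40, adjusted p = 0.0131, lost after a median shift with adjusted p = 0.631) and not in MKN45 (-0.01, adjusted p = 0.95). CBS, an enzyme of homocysteine removal, rose by 0.90 and 0.95, and U2AF1, a splicing factor, was lower at -1.51 and -1.13, though both have a near-identical copy on the same chromosome that the probe may also read. Around CBLIF and TCN1, none of 12 genes was called higher in both lines and 5 were called lower in both, which were PATL1, FAM111A, CCDC86, PRPF19 and TMEM109. The nearest on each side were MRPL16 (-0.18 and 0.05, not called) and CCDC86 (-1.10 and -0.71). After a median shift, TMPRSS2, CBS, WDR4, U2AF1 and TMEM109 kept their calls in both lines, while C2CD2 and PATL1 lost theirs in both and FAM111A, CCDC86 and PRPF19 in MKN45. The median changes of the neighbours were -0.08 and -0.09 around the trefoil genes and -0.24 and -0.08 around CBLIF and TCN1. Around the trefoil genes 3 of 12 were called higher and 4 lower in AGS, and 2 and 4 in MKN45. Around CBLIF and TCN1 it was 0 and 6 in AGS and 2 and 5 in MKN45. Over all genes fitted, 25.6% were called higher and 29.2% lower in AGS and 22.3% and 22.1% in MKN45. The share called alike in both lines was not counted, and these counts and p-values are a description.

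**Figure D4:**
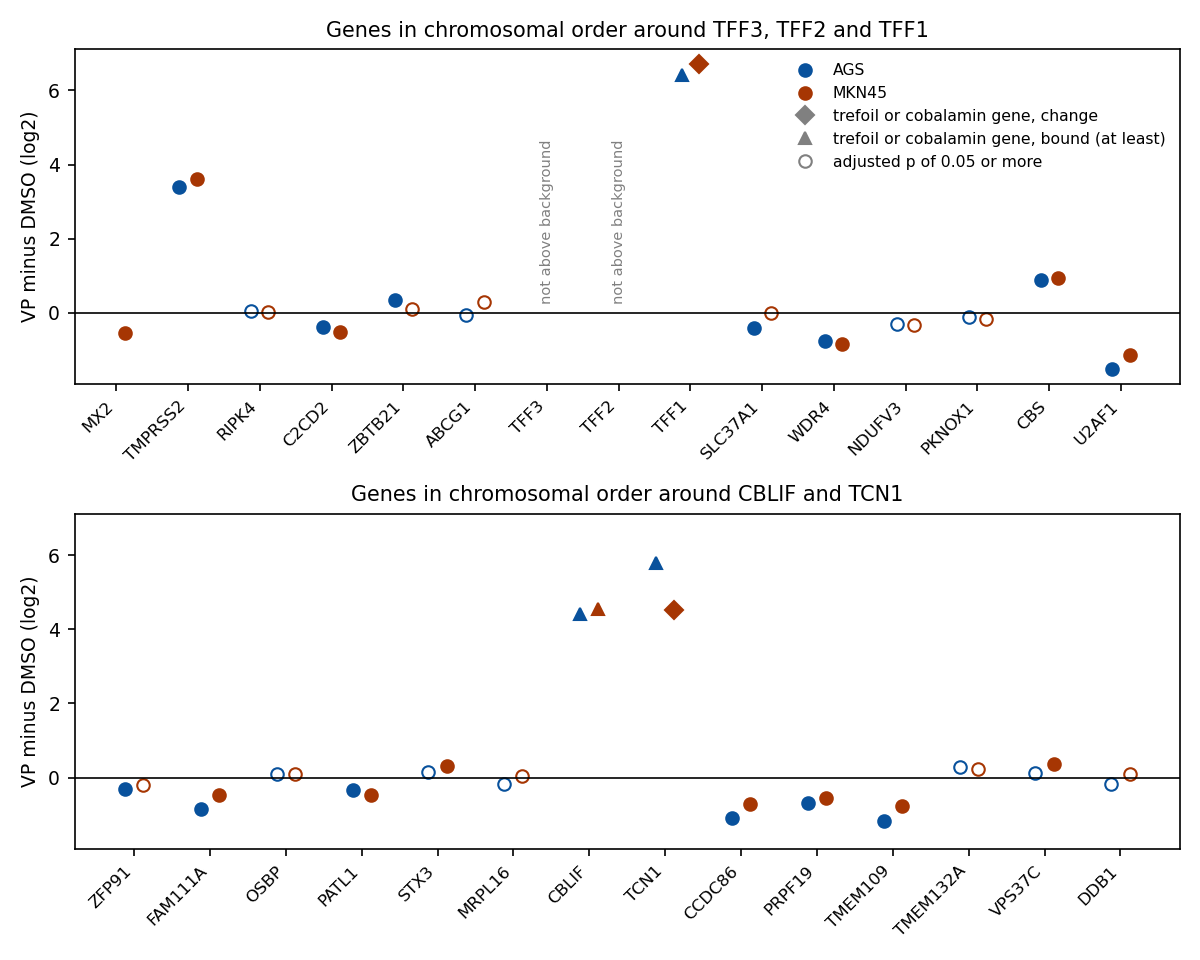
Change with VP (log2, background-corrected scale) of the genes around the trefoil cluster (top) and around CBLIF and TCN1 (bottom), in chromosomal order and not to distance, in AGS and MKN45. Diamonds are changes and triangles bounds for TFF1, CBLIF and TCN1, open points had an adjusted p of 0.05 or more, and a gene above background on no array of a line has no point. The marks of TFF1, CBLIF and TCN1 lie at 4.41 or more, with TMPRSS2 next at 3.40 and 3.62.

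Genes with a pattern most like TFF1 and CBLIF were ranked by Pearson correlation of log2 levels over the 12 arrays among 9693 genes. All such genes share the step between DMSO and VP arrays, so the correlations are a description. TFF1 and CBLIF correlated at r = 0.99 with each other, TFF1 and TCN1 at 0.98, and CBLIF and TCN1 at 0.96. The 8 genes most like TFF1 were SELENOP (0.995), a secreted selenium carrier, B4GALT5 (0.992), BCL6 (0.992), CST2 (0.99), SLC38A2 (0.99), DES (0.99), ITPRIP (0.99) and TPCN1 (0.989). B4GALT5 was among them with a rise of only 0.59 in each line, so the likeness is one of shape and not of size. The 5 most like CBLIF were the fibrinogen chains FGA (0.998) and FGB (0.996), SULT2A1 (0.997), a sulfotransferase of liver and adrenal, CLDN18 (0.995) and the desaturase SCD (0.994). FGA rose by 5.01 and 4.68 and FGB by 5.27 and 4.68 in AGS and MKN45, and both were above background on all DMSO arrays, unlike CBLIF. Of 7 hepatocyte markers, 1 was above background in a group, APOA2, which rose by 1.16 and 1.18. On the probe used for each, ALB was above background on 1 array of each MKN45 group, and APOA1, TTR, AHSG, APOC3 and SERPINA1 on none. The summed signal of the 7 was 2069 to 2137 in AGS with DMSO and 3586 to 4729 with VP, and 1103 to 1700 and 2404 to 2646 in MKN45. Its part in the changes of CBLIF was not tested.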

How the data were processed

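Samples were grouped by their titles. The authors deposited probe signals on a linear intensity scale. A detection p-value was deposited for every signal, from the comparison of the probe with negative controls. Submitters' notes name GenomeStudio, and whether background was subtracted is not given in the sources used here. The authors also deposited a score table, log2 values that they quantile normalized within each line, except for 1 probe on a linear scale, which was not used. The labels state 36 h of treatment, the methods a longer time.

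Signals were normexp corrected with an offset of 16, quantile normalized and log2 transformed (neqc, limma 3.58.1, R 4.3.3). Probes with detection p under 0.01 on all arrays of a group were fitted (16021 of 47323) with lmFit and eBayes over the 4 groups, with Benjamini-Hochberg adjustment and calls under 0.05. On simulated, already normalized levels with few probes changed in AGS with VP, the fit recovered the large changes. Background correction, normalization and the filter were not part of that simulation. The brightest fitted probe stood for a gene, or the brightest of all its probes where none was fitted. For a gene without a fitted probe, statements on background on single arrays hold for that probe alone. Of all probes 30113 had 1 gene symbol, 8 several and 17202 none. Array number limits the precision. Named were all 7 genes, up to 4 genes of a list with the largest changes called alike in both lines, and the genes most like or nearest to members, and other list genes were named after their values were seen. The members and lists were chosen with earlier results of these data known. Listed genes whose symbols were not matched were not analysed here. Alternatives were other scalings, offset and filters, 1 probe per gene, the value table, a replicate block, each contrast's arrays alone, the methods' t-test and leaving out each array.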

Additional observations from a re-analysis of the deposited data

Results flagged for a closer look

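For TCN1 the change with VP differed between the lines in the fit of the difference itself, which is why it is listed here. The difference, MKN45 minus AGS, was -1.98 on the log2 scale. It ran from -2.11 to -0.74 over 18 alternatives on the signals, and the value nearest to 0 was that of the signals as given. In MKN45 all 3 DMSO arrays were above background for TCN1, and in AGS none was. TCN1 was chosen on the changes that make up this difference, so it is a description, with no test.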

How the results depend on the processing

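On the signals, all 3 measured genes were called higher with VP in AGS and in MKN45 under every alternative run. The genes were chosen on this contrast, so these counts describe them and support nothing. In the main fit 24.2% of the fitted probes were called higher with VP in AGS and 21.1% in MKN45. Between the lines with DMSO 2 genes (TFF1 and TCN1) were called, except that the methods' t-test called 1, TCN1, and these counts too are a description. There 7.03% of the fitted probes were called higher in MKN45 in the main fit. Without the filter on background TFF3 was called too in MKN45 (4 of 7). Leaving out 1 array gave 3 to 3 genes called with VP in each line, 2 to 2 for the lines with DMSO and 1 to 2 for a difference of the rise between lines, the 2 without MKN45 replicate 1 with DMSO. In the value table with names moved, 0 genes were called in AGS, 1 in MKN45 (TCN1, lower) and 0 for the difference of the rises, and with its rows as deposited 0, 0 and 0 (limma, and the same counts at an unadjusted p under 0.05). There, with names moved, TCN1 reversed to -0.12 in AGS and -0.26 in MKN45, TFF1 in MKN45 to -0.018 and CBLIF in MKN45 to -0.12. As deposited, TFF1 in MKN45 was at -0.032 and CBLIF in MKN45 at -0.12. The difference of the rise turned sign for TFF1 with the signals as given (0.19), and for CBLIF, whose line difference with VP was never called, that difference ran from -0.0242 to 0.0809 over arrays left out. With the replicate block, 3 genes were called with VP in each line and 1 for the difference of the rises. The numbers did not pair the samples, with correlations of same-numbered deviations of -0.11, 0.18 and -0.04 in AGS and 0.21, 0.003 and -0.03 in MKN45. A filter of probes above background on all 12 arrays left 12871 probes and none of the genes, so it was not run. The block and the value table allow no comparison of the lines, and the t-test and the fits of single contrasts none of the rises. Probes called for a difference of the rises went from 738 higher and 711 lower to 249 and 246 after a median shift and to 446 and 545 with the block. The cause of these changes was not tested. Signal over background limits the 4 genes near background.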
